A study of Mus musculus with 5 samples.

Results

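The genes described here are 10 genes of protein folding and stress signalling in the endoplasmic reticulum (ER), measured in invariant natural killer T (iNKT) cells of mouse liver. The rule picks their rows by symbol and uses no measured value, but the genes were chosen with earlier results of these data known. The folding machinery comprises 7 of them (Hspa5, Hsp90b1, Calr, Canx, Pdia3, Pdia4 and Pdia6) and the stress factors 3 (Xbp1, Atf4 and Ddit3). They correspond to 11 of the 55364 rows of each count table, because 2 rows carry the symbol Ddit3. Of the 10 genes, 9 passed the filter on low counts, and Pdia4 did not.

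Proteins that enter the ER are bound by the chaperones BiP (Hspa5) and GRP94 (Hsp90b1). Glycoproteins pass through the lectin chaperones calreticulin and calnexin, and protein disulfide isomerases form and rearrange their disulfide bonds. When unfolded proteins build up, the sensors IRE1, ATF6 and PERK start the unfolded protein response, in which XBP1 and ATF6 turn on chaperone genes while ATF4 and CHOP (Ddit3) act downstream of PERK. In lymphocytes this machinery serves the assembly of antigen receptors and the secretion of cytokines and antibodies.

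All mice were male wild-type C57BL/6. The healthy group (2 libraries) had been given PBS, and the HCC group (3 libraries) had been given 25 mg/kg of diethylnitrosamine (DEN), a liver carcinogen, in 1 intraperitoneal injection at 15 days of age, and carried hepatocellular carcinoma. Mice were killed at 38 to 42 weeks of age. The cells had been sorted from liver by binding of a PBS57-loaded CD1d tetramer and by the T cell receptor beta chain, and sequenced as 3' mRNA libraries, in which a transcript is read near its end whatever its length. Levels are CPM, each count scaled by its library's own total. Where single libraries are given, the order is healthy 1, healthy 2, then HCC 1, HCC 2, HCC 3; group values are means ± SD (n = 2 healthy, n = 3 HCC). The series counts 2 healthy mice and 3 with HCC, but the names of the HCC 2 and HCC 3 tables share a number, and whether those 2 libraries come from 1 mouse was not tested.

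Totals were 1718452 to 2224356 counts per library, so that where a gene had 0 counts its level could still reach 1.35 to 1.75 CPM (3 counts; counting error only). Healthy 1 stood apart: its Pearson r with the other libraries, across 7842 genes, was 0.754 to 0.812, against 0.857 to 0.908 among the other 4 (genes are not independent replicates). It also had the fewest genes with a count, 10861 against 11822 to 13229. T cell receptor and iNKT marker genes, led by Trbc2 and Id2, summed to 5441 to 7942 CPM, although Zbtb16, the defining iNKT transcription factor, had only 0 to 3 counts per library. Klrb1c (NK1.1), of the same list, split the libraries within both groups, at 382 then 5.49 CPM in healthy livers and at 465, 20.9 then 333 CPM in HCC livers; its part in the results was not tested. Scaling matters for everything that follows. With library totals, the median gene was 0.16 higher in HCC libraries on the log2 scale, and with TMM scaling (a trimmed mean of ratios between libraries, used for the test) it was 0.0047 higher. Fewer cells of a kind and less RNA per cell cannot be told apart in such bulk samples.

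Most of the folding genes share a known element in their promoters. The ER stress element (ERSE), the site bound by ATF6 together with the factor NF-Y and also used by XBP1, was searched as CCAAT and CCACG with any 9 bases between them, on both strands, from 250 bases before to 50 bases after each RefSeq gene start (GRCm38.p6). An exact match was present in 5 of 7 folding genes and in 0 of 3 stress factors. Over all genes with a promoter sequence it was present in 37 of 27025 (0.137%). The element was not derived from these data but is a known site of factors that turn on chaperone genes. Matches in folding genes were therefore likely beforehand, and the contrast with all genes is a description and not an independent test. The matches are shown with 20 bases on each side, 5′ to 3′ on the strand of the gene, with the element in capitals; in Calr and in the downstream match of Hsp90b1 it reads in reverse.
Hspa5, chr2:34772005-34772063, plus strand: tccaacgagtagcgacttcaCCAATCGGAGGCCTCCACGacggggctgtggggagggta
Hsp90b1 upstream match, chr10:86705618-86705676, minus strand: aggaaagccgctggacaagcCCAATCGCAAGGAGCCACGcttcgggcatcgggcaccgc
Hsp90b1 downstream match, chr10:86705513-86705571, minus strand: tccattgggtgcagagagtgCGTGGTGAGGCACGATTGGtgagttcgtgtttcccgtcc
Calr, chr8:84847055-84847113, minus strand: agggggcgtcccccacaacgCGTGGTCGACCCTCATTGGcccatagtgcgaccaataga
Canx, chr11:50325780-50325838, minus strand: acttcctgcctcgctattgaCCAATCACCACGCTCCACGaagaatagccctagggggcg
Pdia6, chr12:17266471-17266529, plus strand: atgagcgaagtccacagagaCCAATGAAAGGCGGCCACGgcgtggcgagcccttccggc

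The matches ended between 47 bases (Hspa5) and 194 bases (Hsp90b1, upstream match) before the RefSeq start. The GENCODE model of Hspa5, whose position is given with its values, starts farther upstream and contains the match. Pdia3, Pdia4 and Ddit3 came within 1 mismatch of the element, as did 1.72% of all genes, whereas the closest stretches in Atf4 and Xbp1 had 2 and 3 mismatches. A related element, ERSE-II, searched as ATTGG and CCACG with any 1 base between them, was found in 0 of the 10 promoters and in 0.0444% of all genes. The short core GACGTGG, bound by XBP1 and ATF6, was found in Pdia6 alone among the 10 and in 2.73% of all genes. These are matches of letters in a fixed window, and no binding was measured.

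The comparison of HCC with healthy livers asks whether the ER folding and stress genes of liver iNKT cells differ in tumour-bearing mice. No member passed the test. By library totals, the levels of Hsp90b1 and Hspa5 in every HCC library exceeded both healthy ones, as did those of 12.8% of all tested genes. With TMM scaling Hsp90b1 alone did so, as did 10.6% of all tested genes. By the means of library-total levels Ddit3 was lower, while Xbp1 and Atf4 had nearly equal group means. In edgeR's quasi-likelihood test over 8468 genes, the adjusted p was under 0.05 for 0 genes higher in HCC (0.0%) and for 0 genes lower (0.0%), and 307 (3.63%) had an unadjusted p under 0.05, among them 0 members. DESeq2 called 9 genes in all and limma-voom 0 (432 and 208 at an unadjusted p under 0.05), with 0 members called. Each of the 9 tested members had an adjusted p of 0.9998 in edgeR, so that the test separated none of the differences below from the spread between libraries.

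**Figure D1:**
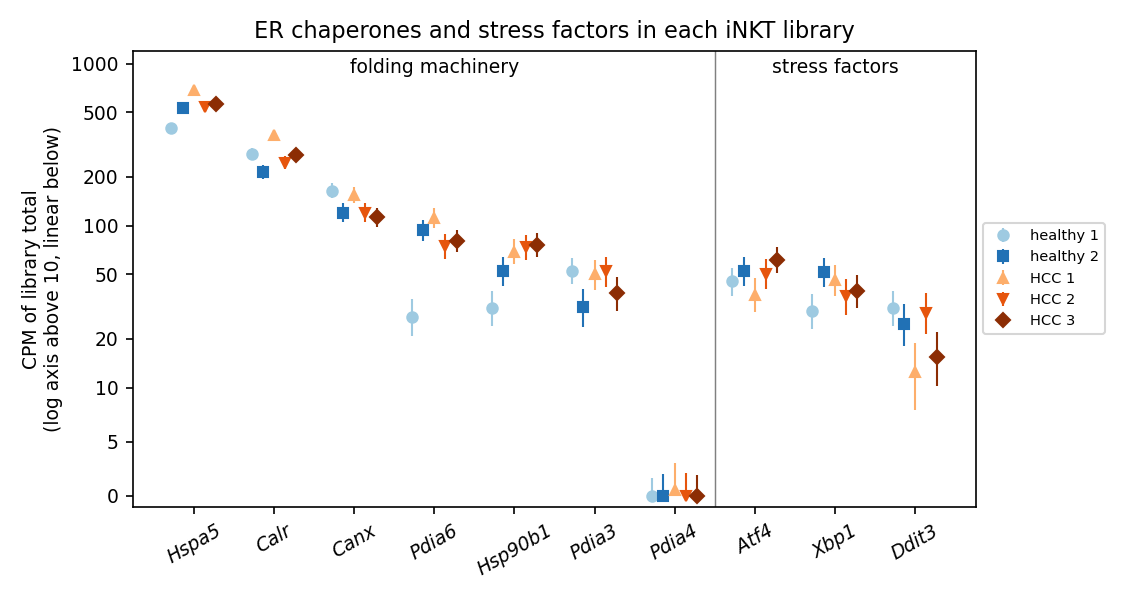
Level of each gene in each library, in CPM of the library total on an axis that is logarithmic above 10 and linear below. Points are single libraries and bars are exact 95% Poisson intervals, which cover counting error only; Hsp90b1 lies higher in the 3 HCC libraries than in both healthy libraries, and healthy 1 is far below the others for Pdia6.

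Hspa5 encodes BiP, the main Hsp70 chaperone of the ER and the protein that keeps the stress sensors inactive (ENSMUSG00000026864, chr2:34771970-34777547, mm10). It was the highest of the 10 genes in all 5 libraries, at 403 then 531 CPM in healthy livers and at 686, 538 then 562 CPM in HCC livers. Its mean exceeded that of 96.6% of the genes tested. All HCC libraries thus lay above both healthy libraries, but healthy 2 and HCC 2 were nearly equal. After TMM scaling the groups overlapped, with healthy libraries at 486 and 512 CPM and HCC 2 at 481 CPM. Group means were 467 ± 90.2 and 595 ± 79.1 CPM, and the fitted log2 fold change with TMM was 0.19 (SE 0.34, 95% interval -0.57 to 0.94), against 0.35 with library totals. HCC 1 held the highest level, and without it the fitted value was 0.068.

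Hsp90b1 encodes GRP94, the Hsp90 chaperone of the ER, whose clients include integrins and Toll-like receptors (ENSMUSG00000020048, chr10:86690209-86705509). Its level was 31.02 then 52.7 CPM in healthy livers and 69.1, 73.3 then 76.4 CPM in HCC livers. The HCC libraries lay close together and above both healthy libraries, with library totals, TMM, DESeq2 size factors and totals over protein-coding genes alike. With 41.9 ± 15.3 CPM in healthy livers and 73.0 ± 3.68 CPM with HCC, it was 1.74-fold higher by the group means and 1.38-fold higher than healthy 2 alone. The log2 fold change was 0.65 (SE 0.40, 95% interval -0.24 to 1.55) at an unadjusted p of 0.132 in edgeR, and 11.5% of the genes tested had a smaller p. It was 0.44 without healthy 1 and 0.95 without healthy 2, and it stayed above 0 in all 14 alternatives run. On the opposite strand the gene overlaps the pseudogene 1810014B01Rik by 4598 bases, with 16, 24, 23, 12 and 42 counts in the same order of libraries.

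Of the 9 tested members, 2 thus had all HCC libraries above both healthy libraries with library totals, where 12.8% of all tested genes did, and 1 (Hsp90b1) with TMM, where 10.6% did. None of the 9 had all HCC libraries below under either scaling, where 5.46% (library totals) and 8.42% (TMM) of all tested genes did. Without healthy 1, 4 of the 9 lay above and 1 below the remaining healthy library in every HCC library, where 24.2 and 23.3% of all tested genes did. Without healthy 2, 4 lay above and 3 below, where 45.7 and 20.9% of all tested genes did. Without HCC 1, HCC 2 or HCC 3 in turn, Hspa5 and Hsp90b1 stayed the 2 above, where 20.4, 17.7 and 20.9% of all tested genes lay, and 0, 1 (Ddit3) and 0 lay below, where 9.81, 10.1 and 9.83% did. With DESeq2 size factors and with totals over protein-coding genes, Hsp90b1 alone lay above (10.9 and 11.9% of all tested genes did) and 0 below (8.24 and 6.52% did). The members that lay above differed between the healthy libraries. Calr and Pdia3 joined the genes above without healthy 1, and Pdia6 and Xbp1 did so without healthy 2.

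The lectin chaperones were the next most abundant. Calr, which encodes calreticulin, the soluble lectin chaperone and calcium-binding protein of the ER (ENSMUSG00000003814, chr8:84841850-84846934), was at 278 then 215 CPM in healthy livers and at 361, 245 then 274 CPM in HCC livers. Canx, which encodes its membrane-bound counterpart calnexin (ENSMUSG00000020368, chr11:50293961-50325673), was at 165 then 120 CPM in healthy livers and at 155, 120 then 113 CPM in HCC livers. Both groups overlapped for both genes. Calr ranked just behind Hspa5 and Canx just behind Calr in each of the 5 libraries. Fitted log2 fold changes were 0.044 (SE 0.38) for Calr and -0.35 (SE 0.38) for Canx. Healthy 1 held more of both than healthy 2, and without healthy 1 the fitted values were 0.43 and 0.081.

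Among the disulfide isomerases, Pdia6 (P5, which also binds BiP; ENSMUSG00000020571, chr12:17266545-17284770) was at 27.4 then 93.9 CPM in healthy livers and at 112, 74.5 then 80.7 CPM in HCC livers. Healthy 1 was thus far below the other 4 libraries, beyond counting error, since its interval ended at 35.2 CPM and that of HCC 2 began at 62.1 CPM. The log2 fold change of Pdia6 was 0.46 (SE 0.49) with all libraries, -0.098 without healthy 1 and 1.41 without healthy 2.

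Pdia3 (ERp57, the partner of calreticulin and calnexin and a part of the MHC class I loading complex; ENSMUSG00000027248, chr2:121413775-121438687) was at 52.6 then 31.3 CPM in healthy livers and at 50.1, 52.4 then 38.2 CPM in HCC livers. The groups overlapped, with a fitted value of -0.075 (SE 0.46), or 0.55 without healthy 1. For Pdia3 it was healthy 2, not healthy 1, that held the lowest level.

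Pdia4 (ERp72; ENSMUSG00000025823, chr6:47796141-47813430) stood apart from the other folding genes. It had 1 count in HCC 1, with a 95% Poisson interval that reached 3.03 CPM. The other 4 libraries had 0 counts, a limit of 1.35 to 1.75 CPM. The other 6 folding genes were at 27.4 CPM or more in every library. No 31-base word of the last 300 bases of its annotated coding transcript occurs in another gene. No fold is given, since no library had more than 1 count.

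Among the stress factors, Xbp1 encodes the transcription factor that IRE1 activates by splicing (ENSMUSG00000020484, chr11:5520659-5525893). It was at 29.7 then 51.6 CPM in healthy livers and at 46.3, 36.7 then 39.3 CPM in HCC livers. All HCC libraries lay between the healthy libraries, and the log2 fold change was -0.14 (SE 0.43). These are gene-level counts, and the spliced and unspliced forms were not measured.

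Atf4, the activator of amino acid and redox genes that is controlled mainly at translation (ENSMUSG00000042406, chr15:80255184-80257541), was at 45.4 then 52.1 CPM in healthy livers and at 37.5, 50.6 then 61.6 CPM in HCC livers. The healthy libraries lay within the span of the HCC libraries. Its log2 fold change was -0.14 (SE 0.42, 95% interval -1.08 to 0.80).

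Ddit3, which encodes the pro-apoptotic factor CHOP (ENSMUSG00000025408, chr10:127290774-127296288), was at 31.02 then 24.7 CPM in healthy livers and at 12.5, 29.1 then 15.4 CPM in HCC livers. HCC 1 and HCC 3 were below both healthy libraries, but HCC 2 lay between them. Counts were 23 to 69 per library. The log2 fold change was -0.78 (SE 0.55, 95% interval -2.01 to 0.44) at an unadjusted p of 0.185 in edgeR, and it was negative in all 14 alternatives, from -1.15 without HCC 2 to -0.43 without healthy 1.

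The other row with the symbol Ddit3 (ENSMUSG00000116429), which lies within the first, had 0 counts in both healthy libraries and 1 or 2 in each HCC library. At its 3' end the main row overlaps by 68 bases the gene Mars on the other strand, with 96, 46, 43, 23 and 39 counts in healthy 1 and 2 and HCC 1, 2 and 3. The strand setting of the counting is not given in the sources used here, so that reads from this overlap, and from that of Hsp90b1, cannot be told apart.

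**Figure D2:**
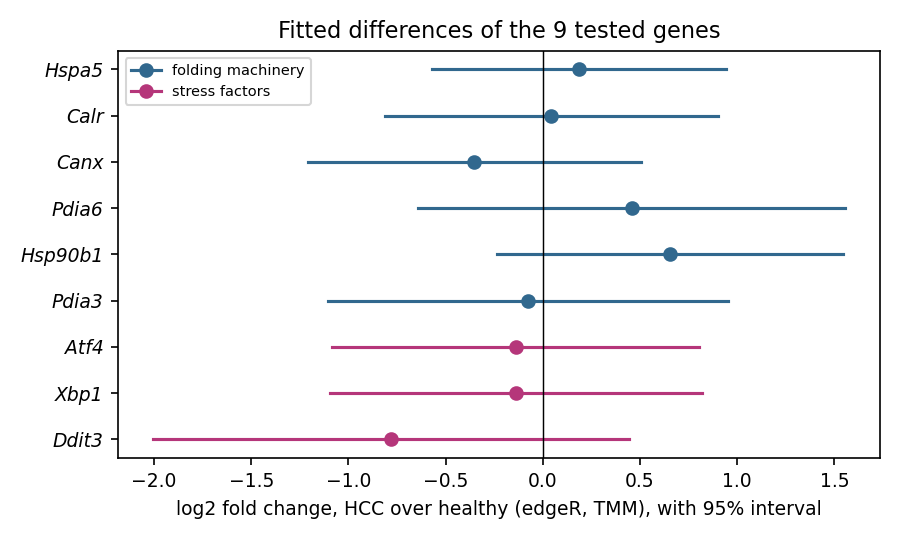
Fitted log2 fold change of HCC over healthy for the 9 tested genes, from edgeR with TMM scaling; points are estimates and lines their 95% intervals. Every interval includes 0, and the estimates of Hsp90b1 and Ddit3 lie farthest to the right and left.

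Folding machinery was set against stress factors within each library. The 7 folding genes summed to 957 then 1044 CPM in healthy livers and to 1433, 1104 then 1144 CPM in HCC livers. The sum was 1.23-fold higher in HCC libraries by the group means, a log2 ratio of 0.29 that was 0.11 with TMM scaling. Hspa5 alone made up 42.1 to 50.8% of it. The stress factors summed to 106 then 128 CPM in healthy livers and to 97.4, 117 then 117 CPM in HCC livers, which overlapped, with a log2 ratio of -0.087 (-0.26 with TMM).

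The ratio of both sums does not depend on how libraries are scaled. Folding over stress was 9.02 and 8.13 in healthy 1 and 2 and 14.7, 9.44 and 9.80 in HCC 1, 2 and 3. Every HCC library lay above both healthy libraries, but HCC 2 and HCC 3 only slightly. Of ratios of 2 single genes averaging 20 CPM or more, 19.2% had every HCC library on 1 side of both healthy libraries. No such share was computed for ratios of sums. The mean log2 ratio was 3.10 ± 0.11 in healthy and 3.47 ± 0.36 in HCC libraries, a difference of 0.37 that was 0.17 without HCC 1. As a share of the counts of all members, stress factors held 9.98% (95% exact binomial interval 8.80 to 11.3%) and 10.96% (9.66 to 12.4%) in healthy 1 and 2. In HCC 1 they held 6.37% (5.49 to 7.33%), the lowest share. In HCC 2 and HCC 3 they held 9.58% (8.35 to 10.9%) and 9.26% (8.13 to 10.5%), near that of healthy 1. The intervals cover counting error only and do not bound differences between mice. No test was made of these sums, because the members were chosen with results of these data known.

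**Figure D3:**
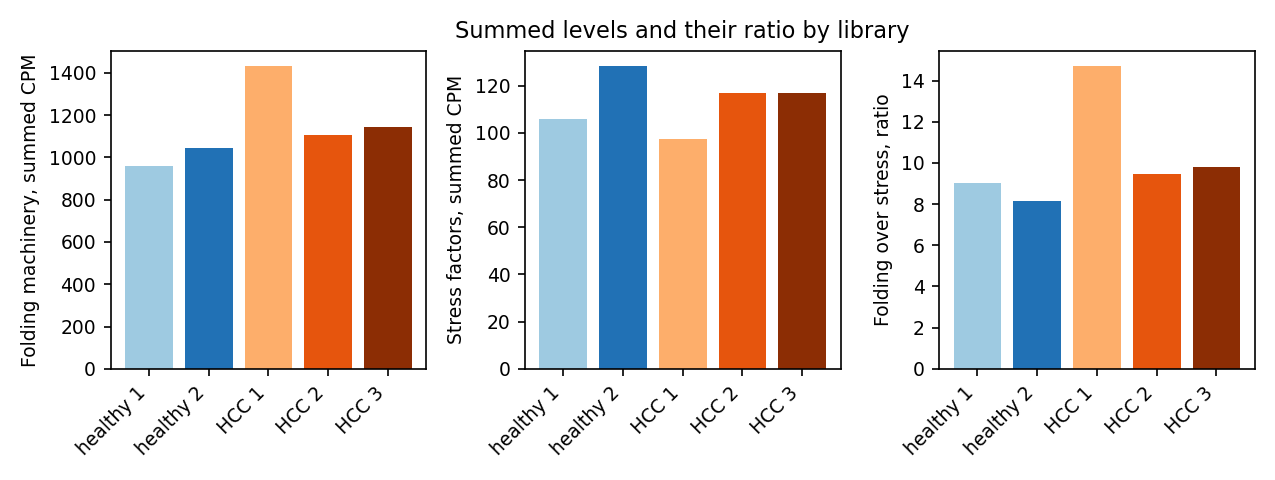
Summed CPM of the 7 folding genes, summed CPM of the 3 stress factors and the ratio of the sums, with 1 bar for each library. HCC 1 has the highest folding sum (1433 CPM), the lowest stress sum (97.4 CPM) and a ratio of 14.7, while the ratios of the other 4 libraries span 8.13 to 9.80.

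Pairs of members were also compared within libraries, free of scaling. Of 9 pairs computed, chosen after the counts had been seen, 4 had every HCC library on 1 side of both healthy libraries, as did 19.2% of all pairs of tested genes averaging 20 CPM or more and counted in every library. These pairs share genes, and 3 of the 4 contain Hsp90b1. Hspa5 was 13.0 and 10.1 times as abundant as Hsp90b1 in healthy 1 and 2 and 9.92, 7.34 and 7.35 times in HCC 1, 2 and 3. Hsp90b1 was 0.189 and 0.438 times as abundant as Canx in the healthy libraries and 0.446, 0.609 and 0.679 times in the HCC libraries. It was 1.00 and 2.13 times as abundant as Ddit3 in the healthy and 5.52, 2.52 and 4.97 times in the HCC libraries. The other pair was Calr over Canx, at 1.69 and 1.79 against 2.33, 2.03 and 2.43.

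The order of the genes was stable at the top and loose below. Hspa5, Calr and Canx held the first ranks in each library, with ranges of 403 to 686, 215 to 361 and 113 to 165 CPM that did not overlap. Pdia6 and Hsp90b1 followed in 4 libraries but ranked lower in healthy 1. The ranges of Pdia6, Hsp90b1, Atf4, Pdia3 and Xbp1 overlapped, and Ddit3 was the lowest of the detected genes in 4 libraries.

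Profiles across the 5 libraries were compared by the mean absolute difference of log2(CPM + 1) values centred on each gene's mean. The closest pair of detected members was Hspa5 and Xbp1, at 0.15, followed by Canx and Pdia3, at 0.17. Ddit3 and Pdia6 were the farthest apart, at 0.88. Calr was nearest to Pdia4 (0.12), whose near absence leaves an almost flat profile, and next to Canx (0.18). Among 1954 tested genes averaging 50 CPM or more, those closest to the summed folding machinery were Atp6v1f, a subunit of the vacuolar proton pump (0.053), the nucleolar protein gene Rsl1d1 (0.060) and Tubb5, a beta tubulin (0.063). Hspa5, which is part of the sum, was at 0.071. With 5 libraries these are descriptions only.

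The rest of the pathway was read from fixed lists of genes, with 0 genes called in any of them in edgeR and 0 at an unadjusted p under 0.05. Among the sensors and their proteases, 4 of 5 tested genes were fitted higher, with a median log2 fold change of 0.36, where 50.3% of all tested genes were fitted higher with a median of 0.0047. The median was -0.028 without healthy 1 and 1.77 without healthy 2. Atf6b, a paralogue of the sensor ATF6, was at 5.84 then 26.9 CPM in healthy livers and at 33.7, 43.1 then 45.1 CPM in HCC livers (log2 fold change 1.22, SE 0.61). Every HCC library was above both healthy libraries, and the value was 0.57 without healthy 1 and 2.50 without healthy 2. Mbtps1, the protease that starts ATF6 cleavage, was at 26.9 ± 9.37 and 38.8 ± 13.7 CPM, and Atf6 itself at 7.71 ± 7.73 and 12.0 ± 13.0 CPM. The other 2 sensors had few counts. Eif2ak3 (PERK), among those fitted higher (0.18, SE 1.44), had 3, 12, 20, 5 and 1 counts in the same order of libraries. Ern1 (IRE1) had 0, 0, 1, 4 and 14 counts and was not tested.

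Other ER chaperones and co-chaperones leaned the other way, with 6 of 16 fitted higher and a median of -0.22 (-0.031 without healthy 1 and 0.16 without healthy 2). Serp1, which stabilises membrane proteins under stress, was at 188 ± 71.8 CPM in healthy livers and 175 ± 28.5 CPM with HCC. Uggt1, the glucosyltransferase that returns misfolded glycoproteins to calnexin and calreticulin, was at 96.2 ± 26.1 and 126 ± 41.2 CPM. Manf, a secreted stress-induced factor, was at 130 then 57.1 CPM in healthy livers and at 93.6, 86.7 then 89.7 CPM in HCC livers, all between the healthy libraries. Other disulfide and oxidative folding enzymes had 8 of 11 fitted higher (median 0.15, with -0.0083 without healthy 1 and 0.46 without healthy 2). P4hb, the first-described protein disulfide isomerase, was at 65.5 ± 25.3 and 81.2 ± 21.4 CPM, Erp29 at 65.0 ± 20.7 and 75.0 ± 8.43 CPM, and Tmx1 at 70.6 ± 27.4 and 65.1 ± 12.8 CPM. Pdia5 had 0 counts in all 5 libraries.

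Genes of ER-associated degradation, which returns misfolded proteins to the cytosol, were fitted higher in 6 of 12 cases (median -0.028). Without healthy 1 it was 4 of 13 (median -0.12), and without healthy 2 it was 9 of 13 (median 0.19). Ube2j1, a ubiquitin-conjugating enzyme of the ER membrane, was at 92.5 ± 1.13 and 125 ± 7.31 CPM, with every HCC library above both healthy libraries by library totals and a log2 fold change of 0.25 (SE 0.36). Vcp was at 75.3 ± 16.9 and 88.1 ± 4.11 CPM and Herpud1, an ATF6 and ATF4 target, at 81.4 then 57.1 CPM in healthy livers and 74.0, 83.8 then 65.8 CPM in HCC livers. The translocon, signal peptidase and N-glycosylation genes, through which proteins enter the ER, had 15 of 21 fitted higher (median 0.25, and 0.071 without healthy 1). Sec61g was at 306 ± 53.0 and 342 ± 33.7 CPM, Ostc at 281 ± 49.7 and 278 ± 60.3 CPM, and Sec61a1, the channel subunit, at 165 ± 45.9 and 219 ± 23.2 CPM.

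At the level of eIF2alpha, which PERK phosphorylates, 3 of 6 genes of the eIF2alpha kinases and phosphatase were tested, all fitted higher (median 0.42). Without healthy 1, 5 were tested, 4 of them fitted higher, and the median was 0.39. Without healthy 2, 5 were tested and the median was 5.77. Healthy 1 then stands alone with 0 counts of Eif2ak1, Eif2ak2 and Ppp1r15a, so that this median is not a measured fold. Eif2s1, which encodes eIF2alpha, was at 22.0 ± 7.64 and 32.9 ± 5.83 CPM, and Ppp1r15b, a phosphatase subunit, at 24.0 ± 10.4 and 30.6 ± 7.72 CPM. Eif2ak1 was at 3.57 ± 5.05 and 16.1 ± 14.7 CPM, with 0 counts in healthy 1, and its fitted value ran from 1.09 to 7.82 when 1 library was left out. Target genes of ATF4 and CHOP were mostly at or near 0. Only 8 of 20 passed the filter on low counts, 4 fitted higher and 4 lower (median 0.012). This median turned with the setting, to -0.36 without HCC 1 and -0.30 without healthy 2, and was 0.43 with the replicate block. Of the 20, 5 had no count in any library, among them Trib3, Chac1 and Atf3. The highest was Slc3a2, an amino acid transporter subunit, at 68.0 ± 31.9 and 88.9 ± 3.49 CPM. Psat1, an enzyme of serine synthesis, was at 40.5 then 35.1 CPM in healthy livers and at 27.8, 33.8 then 15.4 CPM in HCC livers, each HCC library below both healthy libraries by library totals (log2 fold change -0.78, SE 0.49). Cebpg was at 8.41 ± 3.63 and 13.4 ± 4.74 CPM.

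**Figure D4:**
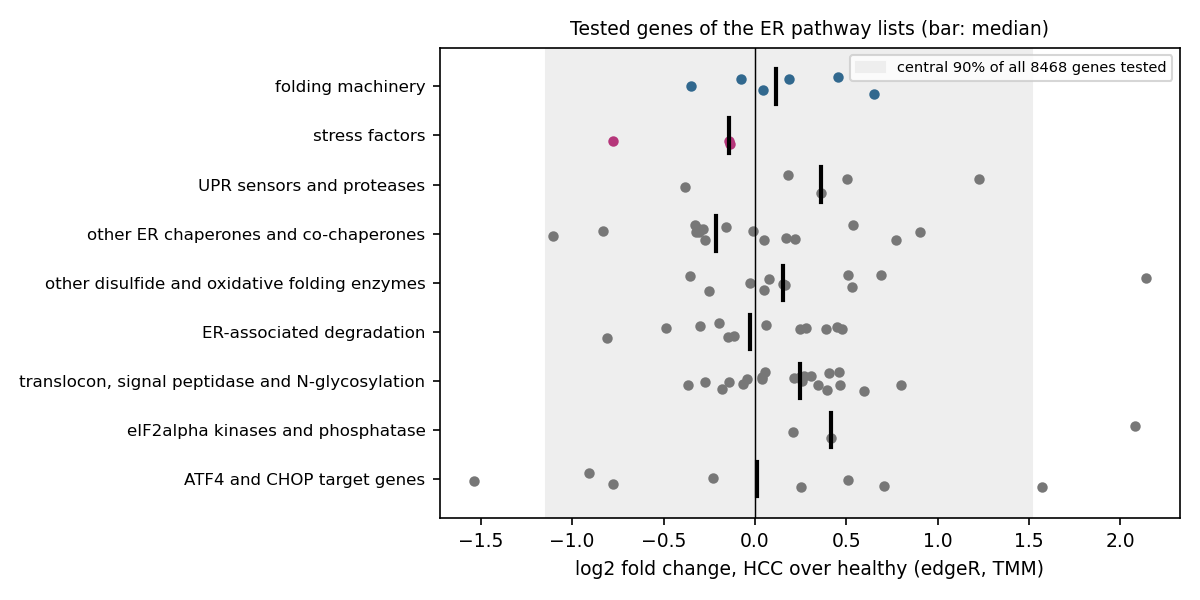
Log2 fold changes of HCC over healthy (edgeR, TMM scaling) for the tested genes of each list, with 1 point per gene, vertical bars at the list medians and grey shading over the central 90% of all 8468 genes tested. The medians of the folding machinery (0.11) and of the stress factors (-0.14) lie on opposite sides of 0 (without HCC 1 the former was -0.032, and with library totals the latter was 0.0054), and all their genes fall within the shading.

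The summed markers of hepatocytes, red cells and liver endothelium, and the summed early response genes, differed between the groups without overlap. For hepatocytes HCC 1 lay only just above healthy 2. Hepatocyte markers (10 of 14 tested, 6 at an unadjusted p under 0.05 in edgeR) summed to 48.6 then 59.8 CPM in healthy livers and to 66.9, 311 then 679 CPM in HCC livers. Erythroid markers (5 of 5 tested, all at an unadjusted p under 0.05) summed to 2975 and 2787 CPM against 7390, 17083 and 15384 CPM. Alb and Serpina3k led the former list and the alpha globin genes Hba-a2 and Hba-a1 the latter, at adjusted p of 0.9998 in edgeR for each. By library totals, 4 of the 10 tested hepatocyte genes and all 5 erythroid genes had every HCC library above both healthy libraries, where 12.8% of all tested genes did. Alb and Serpina3k did not: they were at 18.1 and 9.33 CPM in healthy 2 and at 7.07 and 8.16 CPM in HCC 1. HCC 1, with the highest folding sum, held the lowest hepatocyte and erythroid sums among the HCC libraries. Plasma and B cell markers, of interest because antibody-secreting cells are rich in ER chaperones, summed to 36.0 then 127 CPM in healthy livers and to 113, 191 then 140 CPM in HCC livers (5 of 10 tested), most of it from Ighm and Igkc. Healthy 1 had 0 counts of Jchain, Mzb1 and Igkc, and Tnfrsf17 was at 0 in all 5 libraries. Macrophage and Kupffer cell markers (1 of 10 tested; Lyz2 and Marco the highest) were at 43.2 and 8.78 CPM against 28.3, 33.8 and 11.1 CPM, with Vsig4 at 0 throughout. Neutrophil markers were at 379 to 527 CPM in healthy and 320 to 589 CPM in HCC libraries, nearly all from Mmp9, with S100a8 next and Csf3r at 0. Liver endothelial markers (0 of 6 tested) were at 0 and 1.10 CPM in healthy and at 2.18, 1.75 and 8.49 CPM in HCC libraries. Pecam1 and Egfl7 were the highest, and Stab2 and Cdh5 were at 0. Early response genes, which cell isolation can induce and of which Junb and Ier2 were the highest, summed to 77.8 and 109 CPM against 156, 222 and 150 CPM. The part of these in the values of the members was not tested.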

How the data were processed

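The authors deposited 1 table of raw counts, not normalized, for each library, with Ensembl mouse gene IDs. The submitters' processing notes list edgeR, limma, DESeq and DESeq2, as well as Bowtie2, HISAT2 and bcl2fastq, with no role for any, and give mm10 as the build. The program, gene models and strand setting of the counting are not given in the sources used here. Symbols and positions came by gene ID from GENCODE M21. IDs without a symbol held 0.763 to 1.08% of the counts and pseudogenes 31.7 to 38.5%. Libraries held 1718452 to 2224356 counts.

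Counts were tested in R 4.3.3 with edgeR 4.0.16 (filterByExpr, TMM, quasi-likelihood F test, Benjamini-Hochberg over 8468 genes, threshold 0.05). The same procedure was also run on simulated counts built from the real means and dispersion, and its outcome is not given here. The common biological coefficient of variation was 53.8%. SE and 95% intervals come from that fit. CPM used each library's own total. Alternatives included DESeq2 1.42.0 and limma 3.58.1 (voom), and other scalings and filters, the replicate number as a block and leaving out each library; the closing section gives their effects. p-values measure only the spread between these libraries.

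The members and lists were chosen with earlier results of these data known. Named genes were the 10 members, the 3 genes of highest mean CPM in each pathway list and the 2 highest of each marker list; for profiles, the rule took the member closest to each member and the 3 genes closest to the folding sum. Defining markers, Klrb1c, Syvn1, Dnajc3, Atf3, Trib3, Chac1, Pdia5 and the genes of the closing section were chosen after their values were seen. So were Ern1, Eif2ak2, Eif2ak3, Ppp1r15a and the other plasma and B cell markers named. Words of 31 bases in the last 300 bases of coding transcripts were shared with other genes for 7.41% in Pdia6 and 7.71% in Ddit3 and 0.0% in the other 8 members, taking the main Ddit3 row.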

Additional observations from a re-analysis of the deposited data

How the results depend on the processing

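The number of genes called by edgeR was 0 with all libraries and 0 with HCC 2 and HCC 3 summed as 1 library. It was 53 with no filter on low counts (29 higher, 24 lower), 3 with the replicate number as a block (all higher), 9 with the DESeq2 Wald test (all higher) and 0 to 196 when 1 library was left out, the 196 (102 higher, 94 lower) without healthy 2; there healthy 1 stands alone and takes its spread from HCC. In 126 repeats of the members' fits, 14 for each of 9 members, 0 passed at an adjusted p under 0.05, with adjusted p from 0.132 (Pdia6 without healthy 2) to 1.00 in edgeR, DESeq2 or limma, and 14 changed direction. Calr was at -0.023 with protein-coding genes only; Pdia3 at 0.16 with library totals, 0.11 with the block and 0.016 with limma-voom; Xbp1 and Atf4 at 0.0054 and 0.034 with library totals. Leaving out 1 library gave log2 fold changes from -0.21 to 0.43 for Calr, -0.63 to 0.081 for Canx, -0.46 to 0.55 for Pdia3, -0.098 to 1.41 for Pdia6, -0.36 to 0.17 for Xbp1 and -0.36 to 0.029 for Atf4. Hspa5 (0.068 to 0.30), Hsp90b1 (0.44 to 0.95) and Ddit3 (-1.15 to -0.43) kept their direction.

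Of the other named genes, Erp29 was at -0.012 and Vcp at -0.00068 with protein-coding genes only, Herpud1 and Sec61g at 0.10 and 0.16 with library totals, and Sec61g at 0.020 with no filter. Leaving out 1 library gave -0.78 to 2.04 for Atf6, -0.72 to 0.34 for Serp1, -0.82 to 0.63 for Manf, -0.076 to 0.47 for P4hb, -0.12 to 0.28 for Erp29, -0.48 to 0.067 for Tmx1, -0.014 to 0.19 for Vcp, -0.42 to 0.35 for Herpud1, -0.29 to 0.33 for Sec61g, -0.34 to 0.016 for Ostc, -0.062 to 0.59 for Ppp1r15b and -0.052 to 0.68 for Slc3a2.

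The log2 ratio of the summed folding machinery, 0.29 with library totals, was 0.11 with TMM and 0.11 with DESeq2 size factors, and 0.17 to 0.36 when 1 library was left out. That of the stress factors, -0.087, was -0.26 with either, and -0.22 to 0.057 when 1 library was left out. The difference of their log2 ratio, 0.37, was 0.17 to 0.49 when 1 library was left out. The number of members with every HCC library above both healthy libraries, 2 with library totals, was 1 with TMM, with DESeq2 size factors and with totals over protein-coding genes, where 10.6, 10.9 and 11.9% of all tested genes did so. It was 2 to 4 of 9 when 1 library was left out, where 17.7 to 45.7% of all tested genes did. Below both, it was 0, and 0 to 3 of 9 when 1 library was left out (1 without healthy 1 or HCC 2, 3 without healthy 2), where 9.81 to 23.3% of all tested genes did. These counts were added after seeing the data. Replicate numbers are shared by 2 pairs, which the labels do not tie to a litter, batch or day. Deviations of same-numbered libraries from their group means correlated at -3.5e-05 and 0.12, and those of healthy 1 and HCC 3, with different numbers, at 0.13. The deviations of 2 healthy libraries are mirror images of each other, so these values cannot show whether the numbers pair mice. With within-number differences as the replicate block, the log2 ratios were 0.33 for folding machinery and -0.13 for stress factors, and their difference 0.46. The cause of these shifts was not tested.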

Other observations

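An exact ERSE was found in 32 genes besides the members, and 6 of these passed the filter on low counts. They were chosen by their promoter sequence after the members' values had been seen. Dnajc3, the BiP co-chaperone p58IPK, was at 27.4 then 42.3 CPM in healthy livers and at 43.0, 81.5 then 74.8 CPM in HCC livers, with a log2 fold change of 0.77 (SE 0.45). All HCC libraries were above both healthy libraries, HCC 1 only just. Adcy3, an adenylyl cyclase, was at 1.40 ± 1.20 CPM in healthy livers and 7.41 ± 2.01 CPM with HCC, from 1 to 16 counts per library. Hnrnpa3 (94.4 ± 45.8 and 109 ± 19.9 CPM), Creld2 (7.29 ± 5.22 and 6.25 ± 3.68 CPM) and Xlr3b (15.1 ± 4.22 and 14.1 ± 8.52 CPM) overlapped between the groups. Syvn1, the ubiquitin ligase HRD1 of ER-associated degradation, had 0 counts in healthy 1 and was at 31.8 CPM in healthy 2 and at 21.2, 16.9 and 28.7 CPM in HCC 1, 2 and 3. Of all 11 tested genes with an exact ERSE, members included, 8 were fitted higher (median 0.19 on the log2 scale), where 50.3% of all tested genes were. Of the 6 that are not members, 4 were fitted higher (median 0.27). In edgeR 0 of the 11 passed the test, and 0 had an unadjusted p under 0.05. Among the untested genes were Derl3, of ER-associated degradation, with 2 counts in healthy 2 alone, and the oxidase gene Ero1b, with 16 counts in HCC 1 and 5 or fewer in each other library.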
